A study of Mus musculus with 20 samples.

Results

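The insulin-like growth factor (IGF) family was followed through 10 genes in cultured mouse colon fibroblasts. They were the ligands Igf1 and Igf2, the receptors Igf1r and Igf2r, and the binding proteins Igfbp2, Igfbp3, Igfbp4, Igfbp5, Igfbp6 and Igfbp7. The genes were taken by name from a list, and all 10 were found among the 47729 genes of the count tables. Of these, 9 passed the filter on low counts and were tested, and Igf2 did not pass it.

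IGF1 and IGF2 are secreted growth factors that act through IGF1R, a receptor tyrosine kinase that promotes growth and survival by way of IRS adaptors, PI3K and AKT. IGF2R has no kinase and carries IGF2 to lysosomes for destruction. The binding proteins hold the ligands outside the cell, where proteases such as PAPP-A cleave some of them and free the ligand. In the gut wall, fibroblasts and related cells of the stroma are a known source of IGF1.

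The series concerned inflammatory fibroblasts in rectal cancer that resists treatment given before surgery. All 5 groups were colon fibroblasts of C57BL6/J mice, grown flat on plates in Advanced DMEM F12 with 10% FBS, with 4 samples each. The untreated group, titled wild-type, was compared with cells given organoid-conditioned medium for 24 h. The 4 media were those of APTK and APTKA organoids, each plain or from an irradiated arm (5 fractions of 2 Gy), called here irradiated APTK medium and, likewise, irradiated APTKA medium. APTK and APTKA name organoid lines whose letters are not spelled out in the labels. Whether the organoids or the fibroblasts received the dose is not stated. No irradiated group lacked conditioned medium, and no group received organoid medium that had not been conditioned. Replicates carry the numbers I to IV without a word on separate cultures or animals, so a p-value here reflects the spread between these samples, which may be technical.

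Gene totals lay between 17.3 and 31.6 M counts per sample, and the 2 lowest belonged to replicates I and II of irradiated APTK medium. The fibroblast identity in the labels was matched by its markers: the summed level of 9 such genes (among them Col1a1, Dcn and Vim) was 55990 to 62967 CPM (counts scaled to a library total of 1 M) in untreated cells. It was 48253 to 53804 CPM with APTK medium, 28644 to 32743 with APTKA medium, 41919 to 51260 with irradiated APTK medium and 29783 to 38791 with irradiated APTKA medium. Against untreated cells, all 9 fibroblast markers were called lower with APTKA medium, and 3 were higher and 1 lower with APTK medium. The 7 epithelial markers together reached at most 1.703 CPM in any sample, and Epcam gave 4 counts or fewer in any group. The 6 macrophage markers summed to 8.92 to 9.40 CPM in untreated cells and 4.58 to 5.58 CPM with APTKA medium, and Ptprc gave 4 counts or fewer in either group. Of the 3 macrophage markers tested, 2 were lower and 1 higher with APTKA medium: Lyz2 went from 6.19 to 2.12 CPM and Csf1r from 1.45 to 0.893, while Cd68 went from 1.42 to 2.16. The 5 pericyte and smooth muscle markers summed to 401 to 464 CPM in untreated cells and 295 to 322 CPM with APTKA medium, where 3 were lower and 1 higher. Among them Myh11 was at 311 and 213 CPM and Notch3 at 98.7 and 73.7 CPM. The part of fibroblast, macrophage, pericyte and smooth muscle marker levels in the results on the IGF genes was not tested. On the third principal component of log2 CPM, replicate II of irradiated APTK medium stood apart at -40.8, while replicate IV of that group, at 13.4, lay beside the samples of plain APTK medium (7.11 to 10.8).

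With APTKA medium, IGF family transcripts fell against untreated fibroblasts: 8 of the 9 tested members were lower, none was higher, and Igf1r did not pass the test. A gene passed where its p-value in edgeR's quasi-likelihood test, adjusted by Benjamini-Hochberg over all 14820 genes tested, was under 0.05. In that comparison 61.4% of all genes passed, and 29.9% passed as lower. The median log2 fold change was -1.49 over the 9 members and 0.0031 over all genes. In bulk RNA, fewer cells expressing a gene and less RNA of it per cell cannot be told apart.

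With APTK medium the calls against untreated cells were mixed: 5 members were lower (Igf1r, Igf2r, Igfbp2, Igfbp3 and Igfbp5), Igfbp7 was higher, and Igf1, Igfbp4 and Igfbp6 did not pass, where 43.4% of all genes passed (22.5% lower and 20.9% higher). The members' median was -0.18. At an unadjusted p under 0.05 there were 8 of 9 members with either medium, Igfbp4 and Igfbp6 included with APTK medium. The share of all genes under that unadjusted threshold was not counted, here or in the contrasts below. The contrasts of APTKA and APTK medium with untreated cells share the untreated samples, so their values are set side by side below and their likeness is not a separate result. Compared directly, APTKA medium gave 6 members lower than APTK medium, 2 higher (Igf1r and Igfbp3) and 1 that did not pass (Igf2r), where 62.9% of all genes passed (31.8% lower and 31.1% higher). The members' median in that contrast was -0.96, and that of all genes was -0.026.

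**Figure D1:**
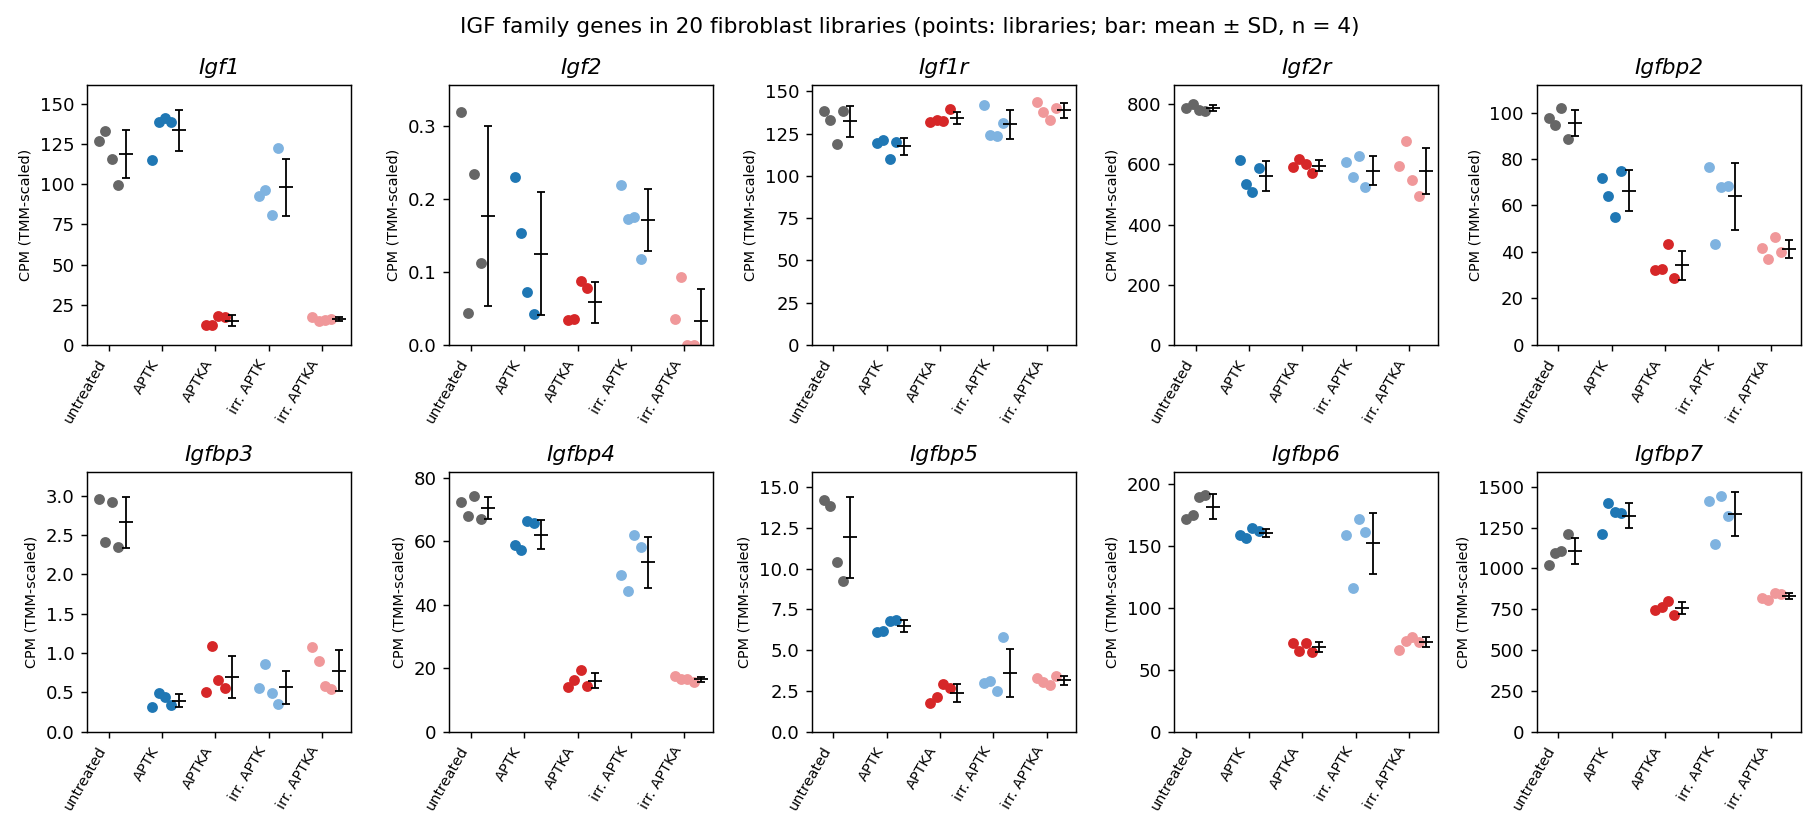
CPM (TMM-scaled totals, vertical axes from 0) of the 10 IGF family genes in each sample of the 5 groups; points are samples and bars the mean ± SD over 4 (the lower bar of Igf2 with irradiated APTKA medium is cut at 0). Igf1 and Igfbp4 lie at similar levels in untreated cells and with APTK medium and far lower with either APTKA medium, while Igf1r stays between 110.2 and 143.5 CPM in every sample.

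Igf1 (ENSMUSG00000020053, chr10:87858265-87937042, plus strand of mm10) is the ligand of the family that these fibroblasts express. Its level in untreated replicates I to IV was 127, 133, 116 and 99.4 CPM. With APTK medium it was 115, 139, 142 and 139 CPM, which overlaps the untreated range. With APTKA medium it was 12.5, 12.3, 18.2 and 17.6 CPM, so that the highest of these samples lay far under the lowest untreated one. The mean fell from 119 ± 14.7 to 15.1 ± 3.18 CPM (SD, n = 4), a 7.89-fold drop (log2 fold change -2.98, standard error 0.146, edgeR adjusted p = 2.36e-12). APTK medium gave a log2 difference of 0.17 from untreated cells with a 95% interval of -0.10 to 0.44 (edgeR adjusted p = 0.307). Between the media, Igf1 was 8.87-fold lower with APTKA than with APTK medium (log2 fold change -3.15, SE 0.147, edgeR adjusted p = 1.26e-12).

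Igf2 (ENSMUSG00000048583, chr7:142650766-142666816, minus strand), an imprinted fetal growth factor, was at the edge of detection. Replicates I to IV held 8, 1, 6 and 3 Igf2 counts in untreated cells, 6, 4, 2 and 1 with APTK medium and 1, 1, 2 and 2 with APTKA medium. With irradiated APTK medium they held 4, 3, 5 and 3, and with irradiated APTKA medium 1, 3, 0 and 0. Every sample held single-digit counts, and each medium's samples overlapped the untreated ones. Against the 18 counts of the untreated group, the depth-scaled ratio was 0.314 for the 6 counts with APTKA medium (exact 95% interval 0.102 to 0.826), 0.705 (0.317 to 1.52) with APTK medium and 0.196 (0.0484 to 0.596) for the 4 counts with irradiated APTKA medium. These intervals cover counting error only. A zero in 1 sample allows up to 3 counts. Annotated Igf2 exons share 62.8% of their length with a gene on the same strand that the count tables do not list (Gm49394), and a small stretch with the antisense gene Igf2os, which held 0 to 3 counts per sample. Without the low-count filter, Igf2 gave a log2 fold change of -1.56 between APTKA medium and untreated cells (edgeR adjusted p = 0.106).

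The receptors moved far less than Igf1. Igf1r (ENSMUSG00000005533, chr7:67952827-68233668, plus strand), which binds both ligands and signals, stood at 138, 133, 119 and 139 CPM in untreated replicates I to IV. It was at 132, 133, 132 and 139.9 CPM with APTKA medium and at 119, 121, 110.2 and 120.1 CPM with APTK medium. Of the APTKA samples 3 lay within the untreated range and 1 just above it, and 3 of 4 APTK samples lay above the lowest untreated one. With APTKA medium the log2 difference from untreated cells was 0.02 (95% interval -0.09 to 0.13, edgeR adjusted p = 0.745). With APTK medium Igf1r fell by 0.17 on the log2 scale (SE 0.0542, edgeR adjusted p = 0.0132). This call was lost without replicate III of APTK medium (-0.14, edgeR adjusted p = 0.0586). APTKA medium was above APTK medium by 0.19 on the log2 scale (SE 0.0542, edgeR adjusted p = 0.00333), and under upper-quartile scaling by 0.12 (adjusted p = 0.0574). Over the 28 alternatives, the adjusted p for APTK medium against untreated cells ranged from 0.00212 to 0.0586. For APTKA against APTK medium it ranged from 0.000408 to 0.0574.

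Igf2r (ENSMUSG00000023830, chr17:12682406-12769664, minus strand), the scavenger of IGF2 and the carrier of mannose 6-phosphate enzymes, was lower with both media. Untreated replicates I to IV held 788, 800.4, 780.1 and 779 CPM, the tightest group of the family. APTK medium gave 616, 534, 507 and 588 CPM. APTKA medium gave 592, 619, 603 and 572 CPM. No sample of either medium reached the untreated range. Igf2r fell by 0.49 on the log2 scale with APTK medium (SE 0.0745, edgeR adjusted p = 6.06e-06) and by 0.40 with APTKA medium (SE 0.0745, edgeR adjusted p = 3.88e-05). Between the media the difference was 0.09 (95% interval -0.06 to 0.24, edgeR adjusted p = 0.311).

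Igfbp4 (ENSMUSG00000017493, chr11:99041244-99054392, plus strand), a soluble inhibitor of IGF action, was far lower with APTKA medium. Its level in untreated replicates I to IV was 72.4, 67.8, 74.2 and 67.1 CPM. APTK medium gave 58.8, 57.3, 66.3 and 65.6 CPM, just under the untreated samples. APTKA medium gave 14.1, 16.3, 19.3 and 14.5 CPM, far below every sample of the other two groups. The fall with APTKA medium was 4.39-fold (log2 fold change -2.14, SE 0.0948, edgeR adjusted p = 5.36e-16). With APTK medium the log2 difference was -0.18 (95% interval -0.36 to -0.0038, edgeR adjusted p = 0.0916), and it passed the test in 3 of 28 alternatives (adjusted p 0.0155 to 0.233 over all of them).

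Igfbp5 (ENSMUSG00000026185, chr1:72857932-72874884, minus strand), which binds to extracellular matrix, stepped down from untreated cells to APTK medium and again to APTKA medium. The untreated samples I to IV held 14.2, 13.8, 10.4 and 9.22 CPM. Those given APTK medium held 6.10, 6.19, 6.80 and 6.83 CPM, and those given APTKA medium 1.75, 2.14, 2.91 and 2.70 CPM. The 3 groups did not overlap. Igfbp5 was 1.84-fold lower with APTK medium (log2 fold change -0.88, SE 0.176, edgeR adjusted p = 0.000299) and 5.06-fold lower with APTKA medium (-2.34, SE 0.199, edgeR adjusted p = 4.82e-10). Between the media the log2 fold change was -1.46 (SE 0.208, edgeR adjusted p = 1.74e-06).

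Igfbp3 (ENSMUSG00000020427, chr11:7206086-7213923, minus strand), the main carrier of IGFs in blood, was lowest with APTK medium. Untreated replicates I to IV held 74, 56, 75 and 63 counts, or 2.96, 2.41, 2.93 and 2.35 CPM. APTK medium left 8, 13, 12 and 8 counts (0.307, 0.497, 0.439 and 0.339 CPM), and APTKA medium 15, 31, 15 and 14 (0.504, 1.09, 0.652 and 0.549 CPM). Both media lay wholly under the untreated samples at low counts. The fall was 6.64-fold with APTK medium (log2 fold change -2.73, SE 0.263, edgeR adjusted p = 2.95e-09) and 3.78-fold with APTKA medium (-1.92, SE 0.236, edgeR adjusted p = 6.27e-08). Igfbp3 was higher with APTKA than with APTK medium by 0.81 on the log2 scale (SE 0.319, edgeR adjusted p = 0.0288). That call was lost without APTKA replicate II (0.50, adjusted p = 0.198), without APTK replicate I (0.71, adjusted p = 0.0793) and without APTK replicate IV (0.75, adjusted p = 0.0647), in a range of 0.0158 to 0.198 over 28 alternatives.

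The sequences just upstream of these binding protein genes are shown because they belong to the members that fell at least 3-fold with APTKA medium; Igf1 also fell that far, but the same window before its RefSeq start lies within an annotated Igf1 exon and is not printed. Each is the 250 bases before the RefSeq start (GRCm38.p6, the assembly of mm10), 5′ to 3′ on the gene's strand. The Igfbp5 window includes 19 bases of an annotated Igfbp5 exon, and the windows of Igfbp3 and Igfbp4 hold 0 exon bases. The windows are chr11:99040994-99041243 (plus strand) for Igfbp4, chr1:72874866-72875115 (minus strand) for Igfbp5 and chr11:7213924-7214173 (minus strand) for Igfbp3. Capitals mark a match to one of 8 motifs searched on both strands.
Igfbp4: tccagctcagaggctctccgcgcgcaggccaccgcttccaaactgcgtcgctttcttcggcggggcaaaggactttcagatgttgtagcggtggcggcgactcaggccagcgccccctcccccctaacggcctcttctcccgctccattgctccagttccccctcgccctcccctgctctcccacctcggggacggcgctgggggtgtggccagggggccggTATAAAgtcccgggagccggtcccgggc
Igfbp5: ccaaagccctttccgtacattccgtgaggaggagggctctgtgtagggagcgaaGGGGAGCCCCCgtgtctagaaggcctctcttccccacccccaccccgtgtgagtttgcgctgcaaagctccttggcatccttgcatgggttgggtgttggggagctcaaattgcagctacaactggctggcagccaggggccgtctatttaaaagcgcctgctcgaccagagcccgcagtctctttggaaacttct
Igfbp3: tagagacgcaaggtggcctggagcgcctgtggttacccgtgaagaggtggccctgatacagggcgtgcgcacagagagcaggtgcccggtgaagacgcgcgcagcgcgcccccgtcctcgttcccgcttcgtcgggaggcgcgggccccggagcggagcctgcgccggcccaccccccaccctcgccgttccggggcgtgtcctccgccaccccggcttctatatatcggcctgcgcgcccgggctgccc
The capitals in Igfbp4 are a TATAAA match that begins 28 bases before the start, a motif found in 12.4% of 32817 mouse windows of the same length. Those in Igfbp5 are 2 overlapping matches to the NF-kB consensus, which 7.25% of windows hold, at 196 and 195 bases before the start. The Igfbp3 window held no match to any of the 8 motifs. The others were CCAAT (33.8% of windows), GGGCGG (32.7%), the AP-1 motif TGANTCA (6.75%), the FOXO motif TGTTTAC (3.16%), the cyclic AMP response element TGACGTCA (1.55%) and the ATF4 motif TGATGNAA (3.45%). GC content was 69.2% in the Igfbp4 window, 58.8% in that of Igfbp5 and 73.2% in that of Igfbp3, against a median of 52.4% over all windows. A match is a description of the letters and not of a bound site.

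Igfbp2 (ENSMUSG00000039323, chr1:72824503-72852474, plus strand) lies 5457 bases from Igfbp5 on the opposite strand. This binding protein prefers IGF2. It was at 97.7, 94.5, 102 and 88.7 CPM in untreated replicates I to IV, at 72.0, 64.2, 54.9 and 74.6 CPM with APTK medium and at 32.2, 32.8, 43.4 and 28.6 CPM with APTKA medium. The 3 groups did not overlap, in the same order as for its neighbour. Igfbp2 fell by 0.53 on the log2 scale with APTK medium (SE 0.146, edgeR adjusted p = 0.00699) and by 1.49 with APTKA medium (SE 0.151, edgeR adjusted p = 1.13e-07).

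Igfbp6 (ENSMUSG00000023046, chr15:102144362-102149511, plus strand) also binds IGF2 before IGF1, and strongly. Its level was 172, 174, 189.7 and 191 CPM in untreated replicates I to IV and 71.6, 65.0, 71.2 and 64.5 CPM with APTKA medium. With APTK medium it was 159, 156, 164 and 162 CPM. APTK medium lay slightly under untreated cells and APTKA medium well under both. The fall with APTKA medium was 2.67-fold (log2 fold change -1.42, SE 0.0809, edgeR adjusted p = 9.30e-14). With APTK medium the log2 difference was -0.18 (95% interval -0.34 to -0.02, edgeR adjusted p = 0.0657). It passed in 8 of 28 alternatives, with adjusted p from 0.00297 to 0.152.

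Igfbp7 (ENSMUSG00000036256, chr5:77349240-77408041, minus strand), a matrix protein that binds IGFs weakly, moved in opposite directions with the media. It was at 1018, 1092, 1109 and 1209.9 CPM in untreated replicates I to IV. APTK medium gave 1212, 1399, 1345 and 1339 CPM, and APTKA medium 744, 764, 801 and 717 CPM. All APTK samples lay above the untreated samples and all APTKA samples below them. Igfbp7 rose by 0.26 on the log2 scale with APTK medium (SE 0.0652, edgeR adjusted p = 0.00208). With APTKA medium it fell by 0.55 (SE 0.0654, edgeR adjusted p = 3.64e-08), and the media differed by -0.81 (SE 0.0656, edgeR adjusted p = 2.86e-11). Exons of Igfbp7 share 85 bases, 7.03% of their length, with Polr2b on the opposite strand, and the strand setting of the counts is not given in the sources used here.

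**Figure D2:**
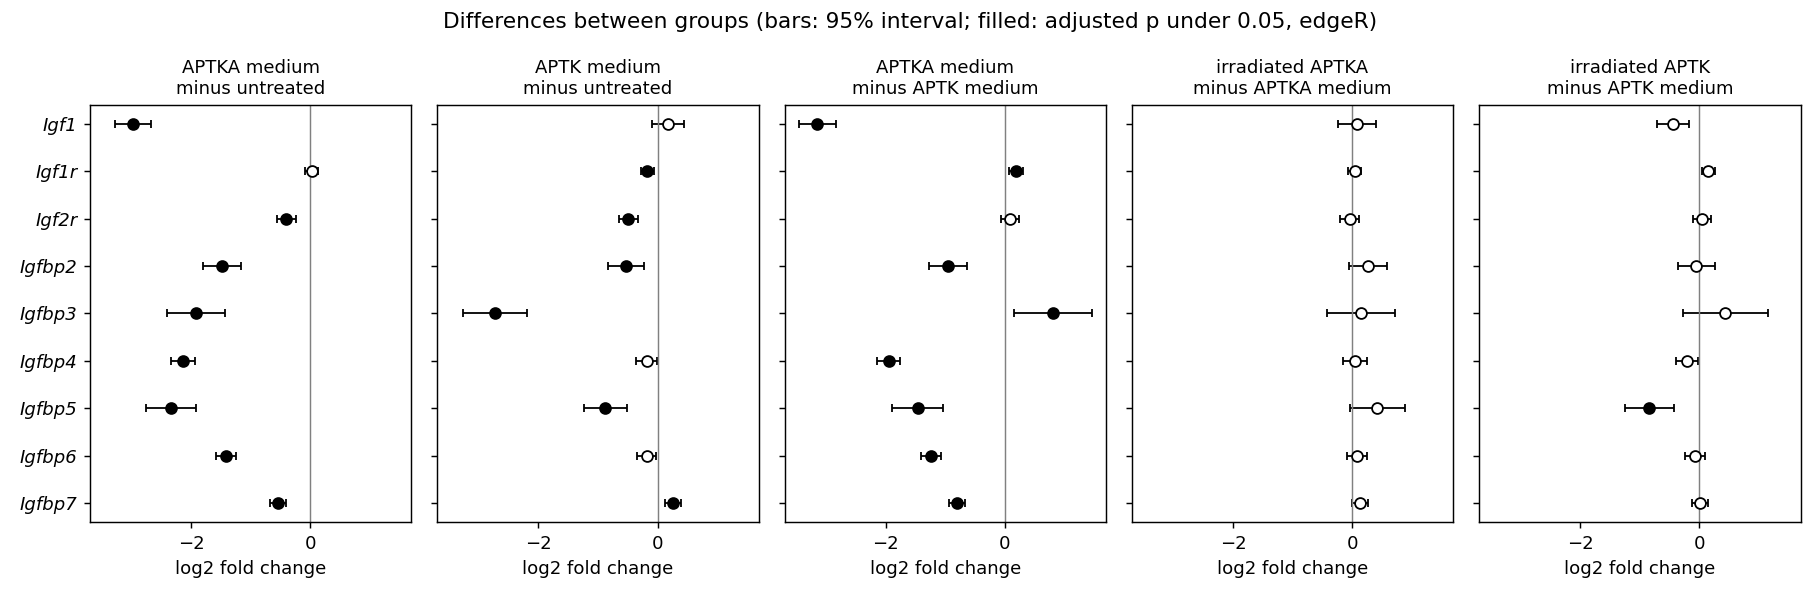
Log2 fold change (horizontal axes) of the 9 tested members in 5 comparisons, with 95% intervals; filled points passed the test (edgeR adjusted p under 0.05). All but Igf1r lie left of 0 and are filled for APTKA medium against untreated cells, and in both irradiation contrasts 1 point in all, Igfbp5 with irradiated APTK medium, is filled.

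Levels can be compared between genes only per length, as CPM per kilobase of merged exons (RPKM). In untreated fibroblasts the order of RPKM was Igfbp7 (916), Igfbp6 (163), Igf2r (84.5), Igfbp2 (51.8), Igfbp4 (15.9), Igf1 (12.0), Igf1r (7.88), Igfbp5 (1.99), Igfbp3 (0.851) and Igf2 (0.031). No neighbours in that order overlapped over their 4 samples. With APTKA medium the transcript of the signalling receptor stood above that of its ligand: Igf1r was at 7.995 RPKM and Igf1 at 1.53, against 7.88 and 12.0 in untreated cells. In the APTKA order, Igf2r and Igfbp6 overlapped, as did Igfbp5 and Igfbp3. With APTK medium Igfbp4 (14.04 RPKM) and Igf1 (13.5) overlapped. Using the longest transcript as the length changed 4 of the rank positions.

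The 6 binding protein transcripts were also summed per length. The sum was 1150 ± 70.2 RPKM in untreated cells (SD, n = 4), 1290 ± 63.5 with APTK medium and 709.8 ± 35.1 with APTKA medium, the ranges of the 3 groups being 1069 to 1238, 1199 to 1346 and 671 to 755. Igfbp7 made up 79.6 ± 0.981% of the sum in untreated cells, 84.8 ± 0.974% with APTK medium and 88.2 ± 0.471% with APTKA medium. Without Igfbp7 the sum was 234 ± 8.90 RPKM in untreated cells, 195 ± 5.41 with APTK medium and 84.0 ± 6.62 with APTKA medium. The samples with APTK medium thus overlapped the untreated ones in the sum of all 6 and lay wholly below them in the sum of the other 5. The share of Igfbp6 went from 14.2 ± 0.409% to 8.63 ± 0.413% with APTKA medium and that of Igfbp4 from 1.39 ± 0.131% to 0.511 ± 0.0520%.

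**Figure D3:**
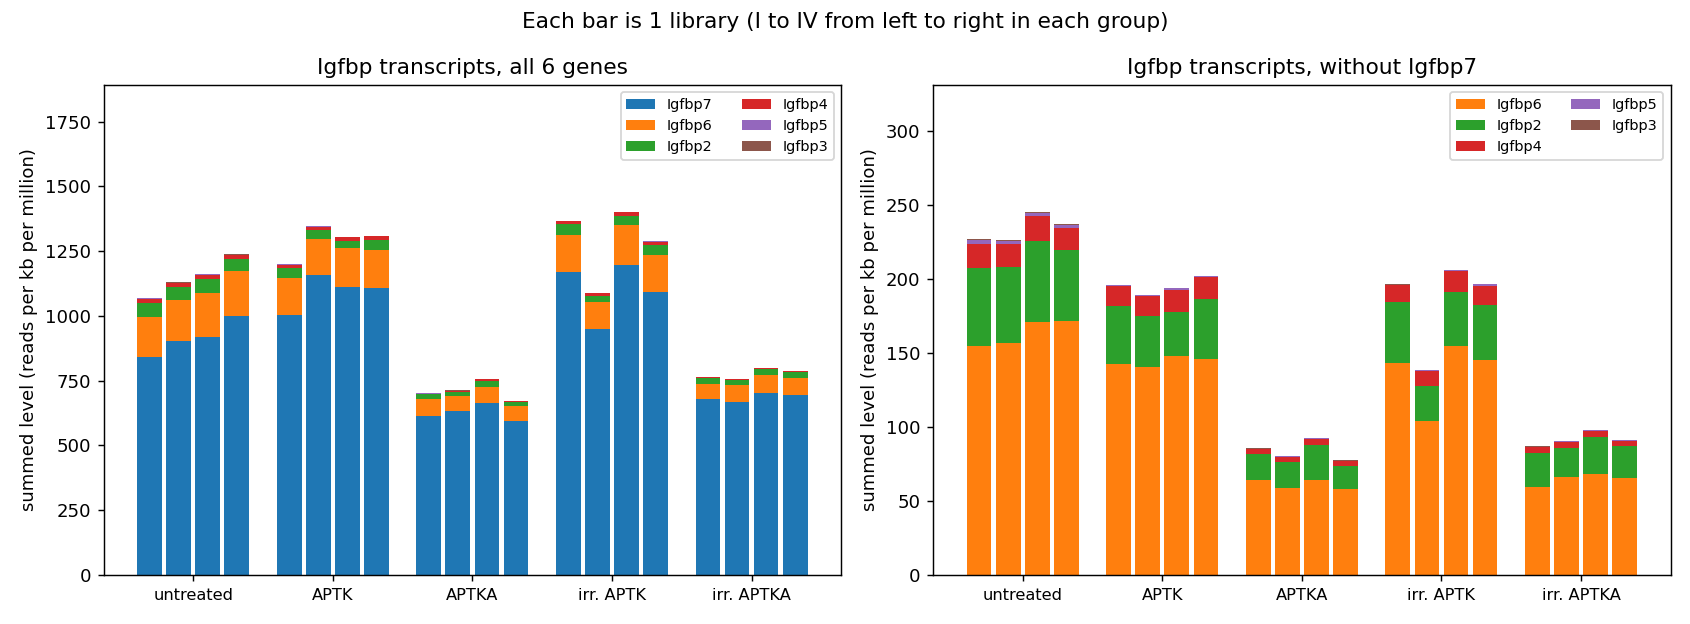
Summed RPKM (vertical axes from 0) of the 6 Igfbp genes, left, and of the 5 without Igfbp7, right; each bar is 1 sample and colours are genes. Igfbp7 fills most of each left bar, and on the right the samples of the APTKA media lie between 77.4 and 97.8 RPKM, under all others.

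The proteases that cleave the binding proteins, with their inhibitors, formed a list of 11 genes, 8 of them tested. With APTKA medium 1 was higher and 5 were lower than in untreated cells (list median -0.72), and with APTK medium also 1 and 5 (median -0.22). Over all genes tested, 31.5% were higher and 29.9% lower with APTKA medium, and 20.9% and 22.5% with APTK medium. Pappa, whose product cleaves IGFBP4 and IGFBP5, was the member that rose with APTKA medium, from 201 ± 18.4 to 436 ± 20.96 CPM (log2 fold change 1.11, SE 0.0715, edgeR adjusted p = 2.14e-13). With APTK medium Pappa fell to 165 ± 6.97 CPM (log2 fold change -0.29). Stc2, which encodes an inhibitor of PAPP-A, fell with both media, by 1.99 on the log2 scale with APTKA medium and by 1.81 with APTK medium. Stc1, a related inhibitor at low counts, was higher with APTK medium by 1.65 on the log2 scale (SE 0.413, edgeR adjusted p = 0.00233) and gave -0.84 with APTKA medium (edgeR adjusted p = 0.201). Of the HtrA proteases, Htra1 fell from 556 ± 38.0 to 279 ± 21.7 CPM with APTKA medium, and Htra3 fell by 1.33 on the log2 scale. The ratio of Pappa to Igfbp4 per length, chosen after its values were seen, was 1.15 ± 0.105 in untreated cells, 1.07 ± 0.124 with APTK medium and 11.1 ± 1.89 with APTKA medium.

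Downstream of the receptor, 13 of 16 listed adaptors and brakes were tested. Against untreated cells, 5 were higher and 4 lower with APTKA medium (median -0.055), and 3 higher and 2 lower with APTK medium (median 0.0014). Shares over all genes were 31.5% higher and 29.9% lower with APTKA medium, and 20.9% and 22.5% with APTK medium. Insr, Irs1 and Irs2, the insulin receptor and the main docking proteins, did not pass against untreated cells with either medium. Grb14, an adaptor that inhibits insulin receptor signalling, rose from 4.89 ± 0.799 to 33.7 ± 4.17 CPM with APTKA medium (log2 fold change 2.79) and by 0.78 on the log2 scale with APTK medium. Grb10, a relative that binds and restrains IGF1R, fell by 1.05 on the log2 scale with APTKA medium and by 0.50 with APTK medium. Socs2, a brake on growth hormone signalling, rose on the log2 scale by 0.87 with APTKA medium and by 1.04 with APTK medium. Socs3, a brake on cytokine and insulin signalling, rose by 1.00 on that scale with APTK medium.

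Of 26 tested genes of PI3K, AKT and mTORC1 signalling (27 listed), 10 were higher and 9 lower with APTKA medium (median -0.049), and 5 higher and 7 lower with APTK medium (median 0.0071). For these and the FOXO targets below, the shares over all genes were 31.5% higher and 29.9% lower with APTKA medium. With APTK medium they were 20.9% and 22.5%. Pik3r1, the main regulatory subunit of PI3K, fell by 1.27 on the log2 scale with APTKA medium and by 0.59 with APTK medium. Pik3cb, a catalytic subunit, rose by 1.20 on the log2 scale with APTKA medium, and Eif4ebp1, the translation repressor that mTORC1 inactivates, fell by 0.96. Among 13 tested targets of the FOXO factors, which AKT holds out of the nucleus, 3 were higher and 8 lower with APTKA medium (14 listed, median -0.33), and 6 higher and 5 lower with APTK medium (median 0.17). They did not move as 1 block: Txnip rose from 221 ± 23.0 to 826 ± 116 CPM with APTKA medium, and Klf15 fell from 4.42 ± 1.32 to 0.223 ± 0.0780 CPM.

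Growth hormone is the classical inducer of Igf1. Of the 5 genes of its receptor axis, 1 was higher and 2 were lower with APTKA medium (median -0.16). Stat5a (17.0 and 15.2 CPM) and Stat5b (28.3 and 28.0 CPM) did not pass. For all lists of this paragraph, the shares over all genes were 31.5% higher and 29.9% lower with APTKA medium. With APTK medium they were 20.9% and 22.5%. Ghr fell from 164 ± 2.79 to 81.5 ± 2.55 CPM with APTKA medium (log2 fold change -1.01, SE 0.0524, edgeR adjusted p = 2.51e-15) and to 130.1 ± 2.23 CPM with APTK medium (-0.33). Jak2, the kinase bound to that receptor, fell by 0.87 on the log2 scale with APTKA medium, while Cish, a feedback target of STAT5, rose by 1.89. Among imprinted growth genes, the class to which Igf2 and, in mice, Igf2r belong, 8 of 11 tested were lower with APTKA medium and 1 was higher (15 listed, median -1.17), and 7 were lower and 1 higher with APTK medium (median -0.33). Cdkn1c, a cell cycle inhibitor, went from 44.5 ± 1.60 CPM to 14.8 ± 1.17 with APTK medium and 5.36 ± 1.26 with APTKA medium, and Mest and Plagl1 fell by 3.13 and 2.56 on the log2 scale with APTKA medium. H19, the neighbour of Igf2, was at 1.21 ± 0.0825 CPM in untreated cells and fell by 1.17 on the log2 scale with APTKA medium (edgeR adjusted p = 0.00153). All 3 Igf2 mRNA-binding proteins were higher with APTKA medium. Igf2bp3 rose by 1.14 on the log2 scale, from 44 counts in the untreated group to 103 with APTKA medium. Igf2bp2 rose by 0.305 with APTKA medium and by 0.314 with APTK medium, where it was the only 1 of the 3 to pass.

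**Figure D4:**
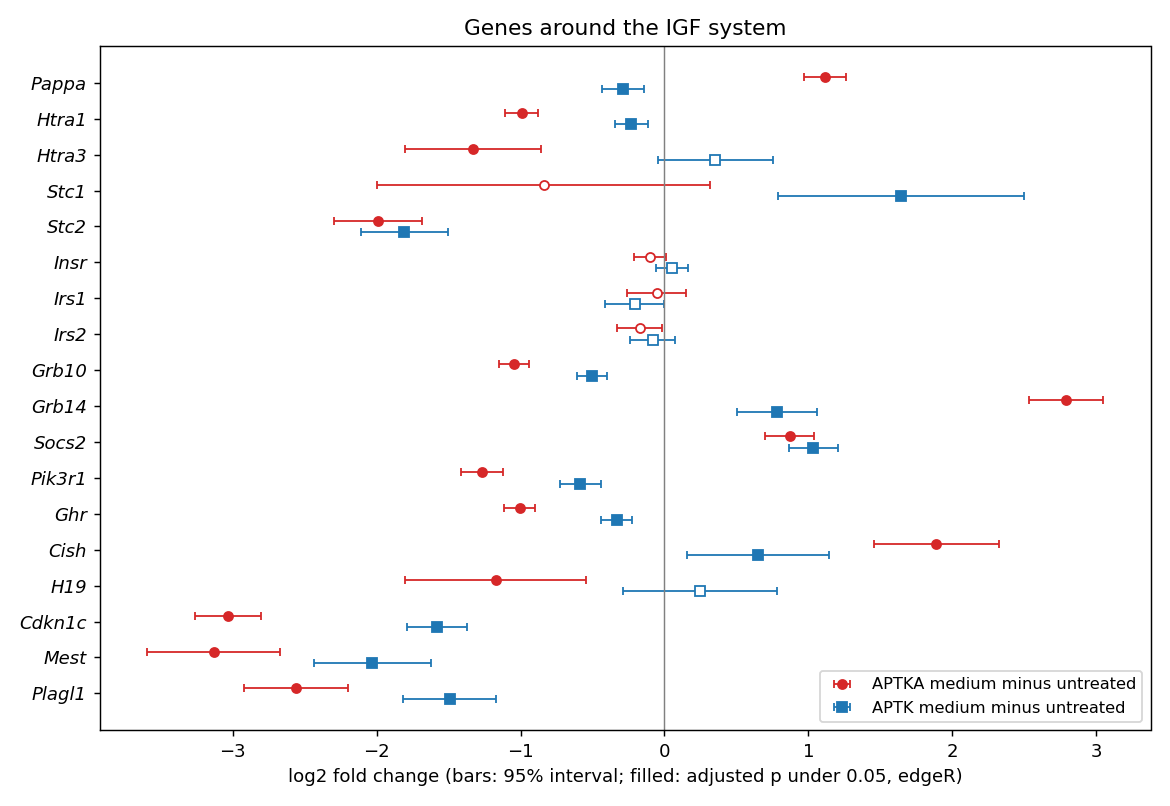
Log2 fold change (horizontal axis) against untreated cells for 18 genes around the IGF system, with 95% intervals; circles are APTKA medium, squares APTK medium, and filled symbols passed the test (edgeR adjusted p under 0.05). Pappa lies at 1.11 with APTKA medium and at -0.29 with APTK medium, and Stc2 lies at -1.99 and -1.81.

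Between irradiated and plain APTKA medium, none of the 9 tested members passed (edgeR), where 0.729% of all genes did (0.452% higher and 0.277% lower). By DESeq2 no member passed either, and 0 of 9 had an unadjusted p under 0.05 in edgeR. Igf1 with irradiated APTKA medium was at 17.3, 14.8, 15.7 and 16.1 CPM in replicates I to IV, a log2 difference of 0.09 from plain APTKA medium (95% interval -0.24 to 0.41). Igfbp4 was at 17.5, 16.6, 16.5 and 15.6 CPM (0.05, interval -0.16 to 0.25). The largest log2 differences were those of Igfbp5 (0.42, interval -0.04 to 0.89) and Igfbp2 (0.27, interval -0.05 to 0.59).

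Between irradiated and plain APTK medium, Igfbp5 was the 1 member of 9 that passed, where 1.38% of all genes did (0.837% lower). At an unadjusted p under 0.05 there were 4 of 9 (Igf1, Igf1r, Igfbp4 and Igfbp5). The 1.38% is a share at the adjusted threshold and is no background for these 4. Igfbp5 with irradiated APTK medium was at 2.97, 3.09, 2.49 and 5.77 CPM in replicates I to IV, against 6.10 to 6.83 CPM with plain APTK medium. Replicate IV, the sample that lay beside the plain APTK samples on the third principal component, was the highest. The log2 fold change was -0.84 (SE 0.201, edgeR adjusted p = 0.0391). The call was lost in 13 of 28 alternatives, among them 10 of the 20 that leave out 1 sample, with adjusted p from 3.25e-07 to 0.402. Without replicate III of irradiated APTK medium it was -0.67 (adjusted p = 0.128), and without the 2 samples of lowest depth -0.67 (adjusted p = 0.402), while without replicate IV it was -1.20. Igfbp4 differed by -0.21 (edgeR adjusted p = 0.243) and passed in 1 of 28 alternatives, without the low-count filter (-0.22, adjusted p = 0.0402, range 0.0402 to 0.911). Igf1 was at 92.4, 96.7, 80.9 and 123 CPM with irradiated APTK medium, with replicate IV again the highest, and differed from plain APTK medium by -0.44 (95% interval -0.72 to -0.17, edgeR adjusted p = 0.0985). Without replicate IV the log2 fold change of Igf1 was -0.57 (edgeR adjusted p = 0.00614, range over 28 alternatives 0.00614 to 0.533), and Igf1 also passed in DESeq2 (-0.44, adjusted p = 0.0198). The number of genes that passed went from 205 to 1271 without replicate IV. Replicate II, the shallowest, was the lowest of its group for Igfbp2 (43.3 CPM), Igfbp4 (44.2), Igfbp6 (115.9) and Igfbp7 (1148).

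The difference between these irradiation effects, APTKA minus APTK, passed for no member (edgeR), where 0.182% of all genes passed. At an unadjusted p under 0.05 there were 2 members, Igfbp5 and Igf1, for which the 0.182% at the adjusted threshold is no background. The difference was 1.26 for Igfbp5 on the log2 scale (SE 0.300, edgeR adjusted p = 0.0981) and 0.53 for Igf1 (SE 0.20, edgeR adjusted p = 0.401). Leaving out replicate IV of irradiated APTK medium gave 1.63 for Igfbp5 (edgeR adjusted p = 0.000182), and the adjusted p ranged from 6.89e-07 to 0.348 over 28 alternatives. Igfbp5 passed without the low-count filter (1.29) and in DESeq2 (1.27) as well.

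The contrast of APTKA and APTK medium was repeated in the irradiated arms with separate samples. Irradiated APTKA medium was lower than irradiated APTK medium for Igf1, Igfbp2, Igfbp4, Igfbp6 and Igfbp7, higher for none (nor in DESeq2; 0 of 9 at an unadjusted p under 0.05), and did not pass for the other 4 tested members, where 61.3% of all genes passed (31.2% lower and 30.1% higher). Igf1 was 6.15-fold lower (log2 fold change -2.62, SE 0.145, edgeR adjusted p = 1.70e-11) and Igfbp4 3.24-fold lower (-1.69, SE 0.0945, edgeR adjusted p = 6.70e-14). In the arms without irradiation the corresponding drops were 8.87-fold and 3.87-fold. Igfbp5, lower with APTKA medium in the plain arms, gave -0.20 here (95% interval -0.64 to 0.25, edgeR adjusted p = 0.437). Igfbp3 passed as higher without replicate II of irradiated APTK medium (0.79, edgeR adjusted p = 0.0369, range over alternatives 0.0369 to 0.381), and Igf1r without replicate I (0.13, adjusted p = 0.0418, range 0.0418 to 0.812). Without the low-count filter Igf2 passed in this contrast (log2 fold change -2.09, edgeR adjusted p = 0.0372), from 15 and 4 counts in all.

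For each member, the genes outside the family with the most similar pattern were found by the root mean square difference of centred log2 CPM means over the 5 groups, among 10138 named genes. For Igf1 they were Gna14 (0.066) and Prelp (0.13), for Igfbp4 Gas6 (0.065) and Herpud1 (0.075), and for Igfbp6 Nrp2 (0.037) and Gstm1 (0.047). Igfbp5 was nearest to Lrrc17 (0.165) and Slc1a4 (0.212), Igfbp2 to Scpep1 (0.061) and Fzd1 (0.068), and Igfbp7 to Sh3bgrl (0.020) and Sppl2a (0.022). Igfbp3 had the least similar neighbours, Mt1 (0.229) and Ptchd1 (0.237). Igf1r was nearest to Capn2 (0.018) and Psma4 (0.020), and Igf2r to Maml2 (0.0093) and Tmcc2 (0.030). The pattern of Gna14 went with that of Igf1 from 27.2 CPM in untreated cells to 27.8 with APTK medium and 3.27 with APTKA medium. With 5 group means, these distances are a description.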

How the data were processed

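RNA-seq counts of 20 samples were analysed. Per the labels' protocols, polyA RNA was extracted with the RNeasy mini kit. Per the submitters' processing notes, the tools were bcl2fastq 2.20.0.422, STAR 2.5.2a and featureCounts 1.5.0-p1, with the genome build mm10. The deposited files hold raw counts of reads, one whole number for each gene. The sources used here do not give the annotation release, the strand setting or how reads with several matches were counted.

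Of 47729 Ensembl identifiers, 47224 were matched to a symbol. Counts were fitted in R 4.3.3 with edgeR 4.0.16 (TMM scaling, default expression filter by group with a minimum count of 10, robust quasi-likelihood test, 5 group means over 20 samples, 15 residual degrees of freedom). The filter left 14820 genes. P-values were adjusted by Benjamini-Hochberg over these genes in each of 7 comparisons. The standard error was derived from the log2 fold change and the test's F value (their ratio with F under a square root), and intervals are 95%. CPM used TMM-scaled totals, and RPKM divided CPM by merged exon length (GENCODE M21, the GRCm38 assembly). A prior count of 2 entered the log2 CPM behind the principal components. The test was checked on simulated counts with 200 changed genes. In the data, 9096 of 14820 genes passed between APTKA medium and untreated cells, and the check does not cover changes that broad.

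The members, the pathway and marker lists, the tests and the naming rule were chosen with earlier results of these data known. The rule named all 10 members, up to 3 genes a pathway list with the largest change past the threshold in the contrasts between untreated cells, APTK and APTKA medium, 9 fixed genes (Insr, Irs1, Irs2, Pappa, Stc1, Stc2, Ghr, H19 and Grb10), and for each member the 2 genes of at least 4 CPM with the nearest pattern. Htra1, named here beside Htra3, was chosen after its values were seen. Replicates of a group differed by more than counting noise (4.45 to 79.9 in chi-square units per degree of freedom) and were all kept. Same-numbered samples of different groups shared little deviation (correlation -0.11 to 0.096 over 40 pairs). That does not settle whether the numbers pair samples by culture or batch, which the labels leave unstated. Alternatives were other scalings, other filters, a fit on the compared groups alone, DESeq2 1.42.0, a replicate block, and leaving out each sample; leaving out the 2 samples of lowest depth was added after the data were seen. Upstream sequences came from the RefSeq table for GRCm38.p6.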

Additional observations from a re-analysis of the deposited data

Results flagged for a closer look

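In groups of 4, a sample stood out where its gap to the nearest other sample, over the group's whole range, was above Dixon's 95% critical value. Of 50 groups of member values tested, 2 were so marked, where chance marks about 1 in 20. Igf1 in replicate I of APTK medium was at 114.9 CPM, below the other 3 samples at 138.8 to 141.5 CPM. Igf1r in replicate IV of APTKA medium was at 139.9 CPM, above the others at 131.9 to 132.9 CPM.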

How the results depend on the processing

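Of 63 log2 fold changes of members, 52 kept their side of the threshold under all 28 alternatives. Some of these 52 that were not called changed sign. Igf1r with APTKA medium against untreated cells ranged from -0.026 to 0.046, and Igfbp5 between the irradiated media from -0.37 to 0.17. None of the 63 changed direction where it was called. The 8 falls with APTKA medium against untreated cells held in all 28. The 11 that changed their call under at least 1 setting belong to Igf1, Igf1r, Igfbp3, Igfbp4, Igfbp5 and Igfbp6, with values given above. Under upper-quartile scaling 1 member instead of 2 was higher with APTKA than with APTK medium (1 to 2 on leaving out 1 sample), and Igf1r gave -0.13 against untreated cells with APTK medium (adjusted p = 0.0570). Genes past the threshold between irradiated and plain APTKA medium numbered 108, and 316 without the filter, 512 with the 2 groups alone, 307 with DESeq2, 293 without the 2 shallowest samples and 34 to 294 without 1 sample. Between irradiated and plain APTK medium they numbered 205, and 492, 10, 439, 27 and 32 to 1271 in the same order, with 1 member lower in the main analysis and 2, 0, 2, 0 and 0 to 2. The difference of irradiation effects passed for 27 genes, for 209 without the filter and 114 with DESeq2 (1 member higher in each), and for 4 to 307 genes and 0 to 1 members without 1 sample. Between the irradiated media, 2 members were higher without the 2 shallowest samples and 0 to 1 without 1 sample. A replicate block left 0 members lower with irradiated APTK medium (Igfbp5 -0.86, adjusted p = 0.0510). It added Igfbp6 with APTK medium against untreated cells (-0.18, adjusted p = 0.0419). Of the 20 samples, 3 correlated best with a sample of their own number, and whether the numbers mark a pairing is not known. Using the longest transcript as the length moved 24 of 50 group levels per kilobase by more than 1 SD, and unscaled totals moved 5 of 50 levels in CPM. The causes were not tested. Counting error is largest for Igf2 and for Igfbp3 with either medium, which rest on few counts.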

Other observations

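The genes around the IGF system were also compared directly between the media. Over all genes, 31.8% were lower and 31.1% higher with APTKA than with APTK medium. Between APTKA and APTK medium, 8 of 13 tested FOXO targets were lower and 4 higher (median -0.52, where that of all genes was -0.026), among them Cdkn1b, a cell cycle inhibitor, at a log2 fold change of -1.06 and Cited2, a transcriptional co-regulator, at 1.58. Of 8 tested proteases and inhibitors, 5 were lower and 2 higher, with Stc1 at -2.49 and Pappa at 1.40. Imprinted growth genes were lower in 8 of 11, while 3 did not pass, with Cdkn1c at -1.45. The insulin receptor gene Insr was lower by a small step (-0.15, SE 0.0541, edgeR adjusted p = 0.0157). Igfals, which encodes the partner of IGFBP3 in the circulating complex, was at 12 to 35 counts in the groups without irradiation and lower with APTKA than with APTK medium (-1.56).

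In each irradiation contrast, 1 of 13 tested adaptors and brakes and 1 of 13 tested FOXO targets passed, and no gene of the other pathway lists did. Of the 9 fibroblast markers, 1 was higher with irradiated than with plain APTKA medium, and 0 passed between the APTK media. Over all genes, 0.729% passed between the APTKA media and 1.38% between the APTK media. Irs1 was lower with irradiated than with plain APTKA medium (24.2 ± 2.46 to 18.2 ± 1.34 CPM, log2 fold change -0.41, edgeR adjusted p = 0.0488), and Fbxo32, a FOXO target, was higher (0.30, adjusted p = 0.0370). With irradiated against plain APTK medium, Socs3 was lower (-0.64, edgeR adjusted p = 0.0142) and Pdk4, a FOXO target, higher (0.46, adjusted p = 0.0297). Fbxo32 and Pdk4 were named after their values were seen, and none of these calls of listed genes was followed over the alternatives. Pappa with irradiated APTKA medium was at 505 ± 33.4 CPM, and its ratio to Igfbp4 per length was 12.2 ± 0.326.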
